A study of Mus musculus with 7 samples.

Results

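Autophagy genes were followed in memory B cells (MBCs) and plasma cells (PCs) of mouse spleen. The list holds 44 genes named by their role in autophagy, from the kinase complex that starts it to the receptors that deliver parts of the endoplasmic reticulum (ER), and all 44 were found among the 48795 genes of the table. The cells came from female wild type C57BL/6 mice aged 8 to 12 weeks that had been given sheep red blood cells intravenously, and spleens were taken on day 10. After enrichment of B cells with magnetic beads against CD43, MBCs (3 libraries) were sorted as B220+ CD38+ CD273+ cells without CD138 or IgD, and PCs (4 libraries) as CD138+ cells with low B220 and no IgD. Libraries were made with the Nugen cDNA kit and read on an Illumina HiSeq. All 7 libraries share genotype, day and immunization, and the groups differ by the sort gates. The labels do not say whether libraries of a group came from separate animals, so each p-value measures the spread between these libraries.

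Autophagy encloses part of the cytoplasm in a membrane and delivers it to lysosomes. The ULK kinase complex and the class III PI3-kinase complex start the membrane, lipid is brought to it from the ER by ATG9, ATG2 and their partners, and the small ATG8 proteins are coupled to it so that receptors carrying cargo can dock. PCs hold a greatly expanded ER for antibody secretion, and autophagy is known to limit the size of that ER and to be needed for the survival of long-lived PCs and of MBCs.

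Values are scaled TPM, that is, the deposited TPM (transcript abundance corrected for gene length, with the same total in each library) divided by a factor for each library that sets the typical gene equal across libraries. The factor ran from 1.48 to 2.05 in MBCs and from 0.636 to 0.813 in PCs, where immunoglobulin genes took 49.4% to 55.9% of all TPM against 1.65% to 3.16% in MBCs. Transcripts of the mitochondrial genome took 19.7% to 33.5% in MBCs and 8.1% to 9.8% in PCs. The identity genes fixed for each population followed the labels, since 4 of 4 PC genes (Prdm1, Xbp1, Irf4, Jchain) were higher in PCs and 5 of 5 B cell genes (Pax5, Bach2, Ciita and Ms4a1 among them) were lower. MBC replicate 3 stood apart in some measures, although all 3 MBC pairs correlated alike, at r = 0.675 to 0.687. Genes above 0 numbered 18061 in it against 12983 and 11527 in MBC replicates 1 and 2. Mitochondrial transcripts took 19.7% in it against 33.2% and 33.5%. MBC replicate 3 correlated with the PC libraries at r = 0.7 to 0.777 where the other MBC libraries reached 0.537 to 0.564. Its Cd38 was 6.77 scaled TPM against 130 and 186, and its Pdcd1lg2, the gene for CD273, was 2.59 against 43.3 and 24.4. Summed germinal center (GC) B cell markers reached 664 in it against 244 and 270.1, and summed proliferation genes 1078 against 204 and 204. Calls were therefore also made without it.

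PCs carried more transcript than MBCs of 6 autophagy genes. They were Wipi1, Vmp1 and Tmem41b, which act where the membrane forms on the ER, the ATG8 genes Map1lc3b and Gabarap, and the ER receptor Ccpg1, while Tfeb, a transcription factor of autophagy and lysosomal genes, was lower. The other 36 of the 43 members tested did not pass. To pass, a gene needed an adjusted p (limma, Benjamini-Hochberg over the 11573 genes tested) under 0.05 and a log2 fold change, PC minus MBC on log2(scaled TPM + 1), of 1 or more in size. The 6 higher members are 14.0% of those tested, where 6.41% of all genes were called higher, and the 1 lower member is 2.33%, where 2.14% of all genes were called lower. Every PC library lay above every MBC library in 11 members (25.6%, against 13.0% of all genes) and below in 3 (6.98%, against 8.68%), while 29 overlapped. The fold change was positive in 30 members and negative in 13, with a median of 0.52 where all genes had 0.14. Of all genes tested 6419 were positive and 5154 negative. Without MBC replicate 3 the calls were 8 higher and 3 lower, beside a background of 15.1% and 8.2%. All 7 genes were still called then, and Atg5, Pik3r4, Sqstm1 and Uvrag joined them.

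The calls depend on the scaling. With TPM as deposited the median over all genes shifted to -0.91 and that over the members to -0.35, and 1 member was called higher (Wipi1) and 8 lower, beside 4.08% and 26.1% of all genes. The share of called members that were higher was thus 85.7% with scaled TPM and 11.1% with TPM as deposited, 60.0% once immunoglobulin genes had been removed before scaling and 75.0% after quantile normalization. Among all called genes the same shares were 74.9%, 13.5%, 47.7% and 59.5%, so this dependence was not particular to the members. None of the 7 called genes changed sign under any of the 18 alternatives, although Gabarap came down to 0.07, Vmp1 to 0.39 and Map1lc3b to 0.42 with TPM as deposited. Each library also has a code in its title, and MBC replicates 1, 2 and 3 carry the codes of PC replicates 1, 3 and 4, while PC replicate 2 has one of its own. What a code or its prefix (1 of 2) stands for, and whether libraries of a code share an animal, is not given, and the fit did not pair them. With the title code as a block 2 members were higher (Ccpg1 and Wipi1) and 0 lower, so that Vmp1, Tmem41b, Map1lc3b, Gabarap and Tfeb were not called. That block leaves less of the data to estimate the spread, and PC replicate 2, alone in its code, does not enter the difference between groups. The median fold change over all genes was 0.13 with the block and 0.14 without it. Among the 5 libraries of the more frequent prefix (2 MBC, 3 PC) 6 members were higher and 2 lower, and with the prefix as a covariate 6 and 0. The other prefix holds 1 library of each group and gives no test. With the title code as a block 3.75% of all genes were higher and 0.717% lower, beside 4.65% of members higher. For the more frequent prefix it was 9.89% and 4.37% of all genes, beside 14.6% and 4.88% of members. With the prefix as a covariate 6.88% and 2.73% of all genes were called, beside 14.0% of members higher.

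**Figure D1:**
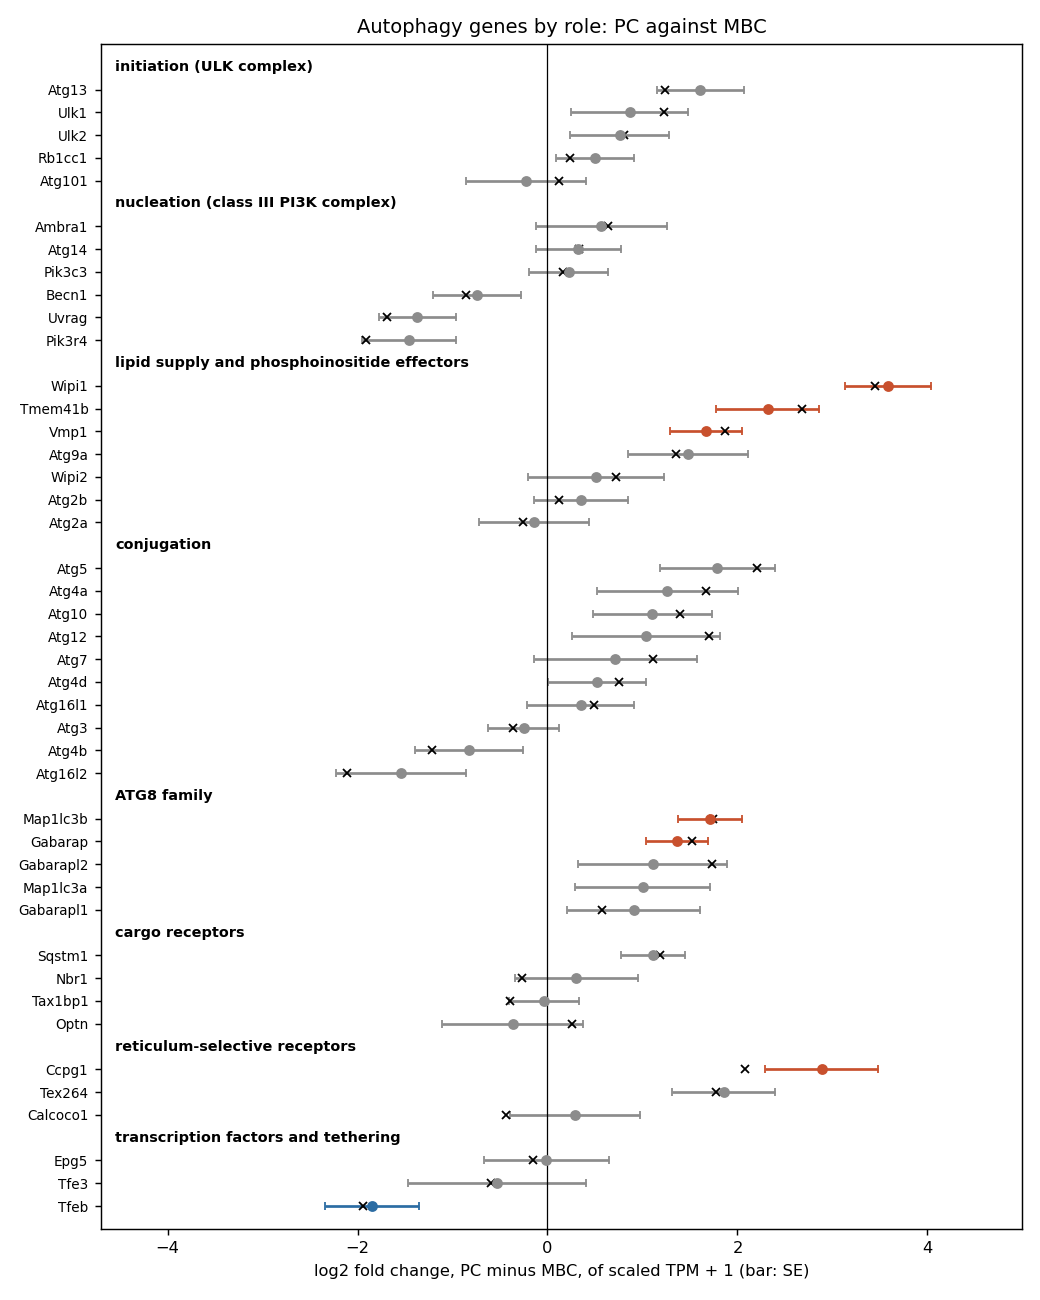
The log2 fold change (PC minus MBC on log2(scaled TPM + 1)) of the 43 members tested, by role, with bars for the SE; red points are the 6 called higher, the blue point is Tfeb, grey points were not called, and crosses leave out MBC replicate 3. With scaled TPM 30 points lie to the right of 0, and with TPM as deposited 15 would. Of all 11573 genes tested 6419 and 2810 would, in that order.

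RefSeq promoter windows of 300 bases on GRCm38.p6, from 250 before to 50 after a start site, were given for 37 of the 44 members. Both strands were searched for 4 short motifs. TCACGTG, the E-box bound by TFEB and TFE3, stood in 3 of 37 members (8.11%: Atg14, Atg3 and Atg7) and in 4.29% of the 27025 genes with a window. The shorter E-box core CACGTG, which lies inside the former, stood in 4 (10.8%, Atg5 in addition) against 8.09%. The windows of Atg14 (chr14:47568385-47568684) and Atg7 (chr6:114670846-114671145) lie inside the annotated genes, at an internal start site. Those genes span chr14:47540893-47570649 (minus strand) and chr6:114643097-114860614 (plus strand). GACGTGG, the core of a site bound by ATF6 and XBP1, was in 0 members against 2.73%. A part of the ATF4 site, TGATGCA, was in 2 (5.41%: Vmp1 and Optn) against 3.63%. Of the 6 members higher in PCs, Vmp1 held the ATF4 motif and no other match was found. The 250 bases before the start are printed for the 2 higher members that held their call most often, Wipi1 and Ccpg1, for Vmp1 (the second of its 3 windows) and, as the member with the most matches, for Atg3. Capitals mark the matches, at -134 from the start in Vmp1 and at -95 and -72 in Atg3, where the latter also matches on the other strand from -71. The printed stretches of Wipi1 and Vmp1, with the match in Vmp1, lie inside the annotated genes (chr11:109573331-109611967 and chr11:86583865-86683836). Their start sites are thus downstream of the outer start of the gene.
Wipi1, chr11:109611390-109611639, minus strand: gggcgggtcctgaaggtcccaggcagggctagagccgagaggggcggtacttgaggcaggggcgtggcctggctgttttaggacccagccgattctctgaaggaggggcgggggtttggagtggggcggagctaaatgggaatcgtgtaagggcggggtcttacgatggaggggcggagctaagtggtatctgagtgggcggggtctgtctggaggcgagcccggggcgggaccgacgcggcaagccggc
Ccpg1, chr9:72985254-72985503, plus strand: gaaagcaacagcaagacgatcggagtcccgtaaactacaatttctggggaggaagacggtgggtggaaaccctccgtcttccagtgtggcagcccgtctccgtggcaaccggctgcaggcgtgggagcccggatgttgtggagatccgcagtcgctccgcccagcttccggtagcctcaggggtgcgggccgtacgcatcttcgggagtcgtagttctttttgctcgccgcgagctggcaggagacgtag
Vmp1, chr11:86683524-86683773, minus strand: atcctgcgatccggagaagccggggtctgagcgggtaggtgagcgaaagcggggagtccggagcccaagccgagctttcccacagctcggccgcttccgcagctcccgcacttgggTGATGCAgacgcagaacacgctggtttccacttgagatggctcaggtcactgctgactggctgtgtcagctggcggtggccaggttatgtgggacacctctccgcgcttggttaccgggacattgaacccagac
Atg3, chr16:45158579-45158828, plus strand: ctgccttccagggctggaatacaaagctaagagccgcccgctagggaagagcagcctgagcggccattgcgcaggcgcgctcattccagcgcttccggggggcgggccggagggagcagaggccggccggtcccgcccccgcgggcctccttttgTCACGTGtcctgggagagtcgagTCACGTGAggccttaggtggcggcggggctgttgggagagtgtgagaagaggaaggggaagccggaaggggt
The upstream 250 bases of the 47 member windows had a median GC content of 59.6%, against 52.4% over all 32851 windows.

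None of the 5 genes of the initiation complex passed the test. Atg13, the adaptor that holds the ULK kinases to their partners, came nearest. In MBC replicates 1 to 3 it was at 10.5, 6.97 and 3.52 scaled TPM, and in PC replicates 1 to 4 at 25.5, 22.3, 25.0 and 15.8, so that all PC libraries were above all MBC libraries. The log2 fold change was 1.61 (SE 0.46, adjusted p = 0.061). Atg13 was called in 1 of 18 alternatives, without MBC replicate 1 (limma adjusted p = 0.0437). Ulk1, the kinase that responds to nutrient signals, was at 3.24, 3.06 and 8.14 in MBCs and at 4.83, 7.40, 22.8 and 7.03 in PCs. PC replicate 3 was far above the other PCs, the groups overlapped, and the fold change was 0.87 (SE 0.62, adjusted p = 0.43). Its paralogue Ulk2 had 0.76 (adjusted p = 0.414), Rb1cc1, the scaffold also called FIP200, 0.50 (0.494), and Atg101, which stabilizes Atg13, -0.22 (0.862). Ulk1 made up 54.6% ± 15.9 (SD, n = 3) of summed Ulk1 and Ulk2 TPM in MBCs and 55.5% ± 17.7 (n = 4) in PCs (exact permutation p = 0.971).

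The class III PI3-kinase complex, which makes the lipid PI3P at the forming membrane, held no called gene among 6, and its median log2 fold change of -0.26 was below that of all genes. Uvrag, a subunit of the form of the complex that acts on late autophagosomes and endosomes, was at 93.3, 209 and 71.8 scaled TPM in MBCs and at 48.4, 39.3, 37.6 and 46.6 in PCs. Pik3r4, the regulatory subunit VPS15, was at 35.8, 26.2 and 11.0 in MBCs and at 8.49, 5.31, 9.13 and 7.04 in PCs. In both genes every PC library was below every MBC library, and in both the lowest MBC value was that of replicate 3. The fold changes were -1.37 for Uvrag (SE 0.40, adjusted p = 0.0699) and -1.46 for Pik3r4 (SE 0.50, adjusted p = 0.11). Without MBC replicate 3 both were called, at -1.69 (0.0176) and -1.91 (0.0149), and both were also called among the libraries of the more frequent prefix (0.0453 and 0.0494). Uvrag shares 17.6% of its exon bases with the antisense gene Gm45187. Becn1, the core subunit Beclin, had -0.74 (adjusted p = 0.367) and shares 43.9% of its exon bases with Cntd1 on the other strand, which was listed at 0.48 scaled TPM or less. The catalytic subunit Pik3c3 had 0.22 (0.789), Atg14, the subunit specific to autophagosome formation, 0.33 (0.702), and Ambra1, which regulates Beclin, 0.57 (0.665).

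Genes that supply lipid to the membrane or read PI3P on it held 3 of the 6 higher members. Wipi1 (GRCm38 chr11:109573331-109611967, minus strand) encodes a protein that binds PI3P. Its scaled TPM was listed as 0 in MBC replicates 1 and 2 and as 0.015 in replicate 3, against 11.0, 12.0, 11.0 and 10.3 in PCs. The PC libraries were thus close to each other, and none of the MBC libraries came near them. The fold change was 3.58 on the log2(scaled TPM + 1) scale (SE 0.45, adjusted p = 0.00101). No linear fold is given against libraries listed at 0. Wipi1 was called in all 18 alternatives, at 3.13 to 6.74 and adjusted p of 0.000525 to 0.024. Wipi2, the paralogue that recruits Atg16l1 to the membrane, was at 8.52, 1.23 and 6.47 in MBCs and at 1.95, 7.92, 12.3 and 9.26 in PCs (0.51, adjusted p = 0.709). Of the summed TPM of the pair, Wipi1 therefore took 0, 0 and 0.225% in the 3 MBC libraries and 84.9%, 60.2%, 47.3% and 52.6% in the 4 PC libraries, and the ranges did not overlap (exact two-sided permutation p = 0.0286, the smallest that 35 assignments allow).

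Vmp1 and Tmem41b encode ER membrane proteins that move phospholipid between the leaflets of the membrane and are needed for autophagosomes to form. Vmp1 (chr11:86583865-86683836, minus strand) was at 17.4, 10.6 and 21.6 scaled TPM in MBCs and at 49.2, 60.7, 39.7 and 65.1 in PCs. Its mean rose from 16.6 ± 5.55 (SD, n = 3) to 53.7 ± 11.5 (n = 4), with no overlap, the log2 difference being 1.67 (SE 0.38, adjusted p = 0.025). Tmem41b (chr7:109972187-109986929, minus strand) was at 1.54, 5.93 and 8.64 in MBCs and at 16.6, 29.9, 34.5 and 29.2 in PCs. It rose from 5.37 ± 3.58 to 27.5 ± 7.65, by 2.32 (SE 0.54, adjusted p = 0.0288). A near-identical pseudogene, Gm6223, took at most 3.51% of the sum of the 2 loci. Vmp1 kept its call in 10 of 18 alternatives and lost it without MBC replicate 2 or without PC replicate 1, 2 or 4. Tmem41b kept it in 9 and lost it without MBC replicate 1 or without PC replicate 2, 3 or 4.

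The lipid scramblase Atg9a was listed at 0.088, 4.54 and 1.13 in MBCs and at 4.47, 5.40, 8.44 and 4.56 in PCs, overlapping through MBC replicate 2 (1.48, SE 0.63, adjusted p = 0.186). It shares 31.8% of its exon bases with Gm29253, which was at 0.492 or less. The lipid transfer proteins Atg2a and Atg2b had -0.14 (adjusted p = 0.907) and 0.35 (0.711). Over all 7 genes of this group the median fold change was 1.48, and 0.39 with TPM as deposited.

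**Figure D2:**
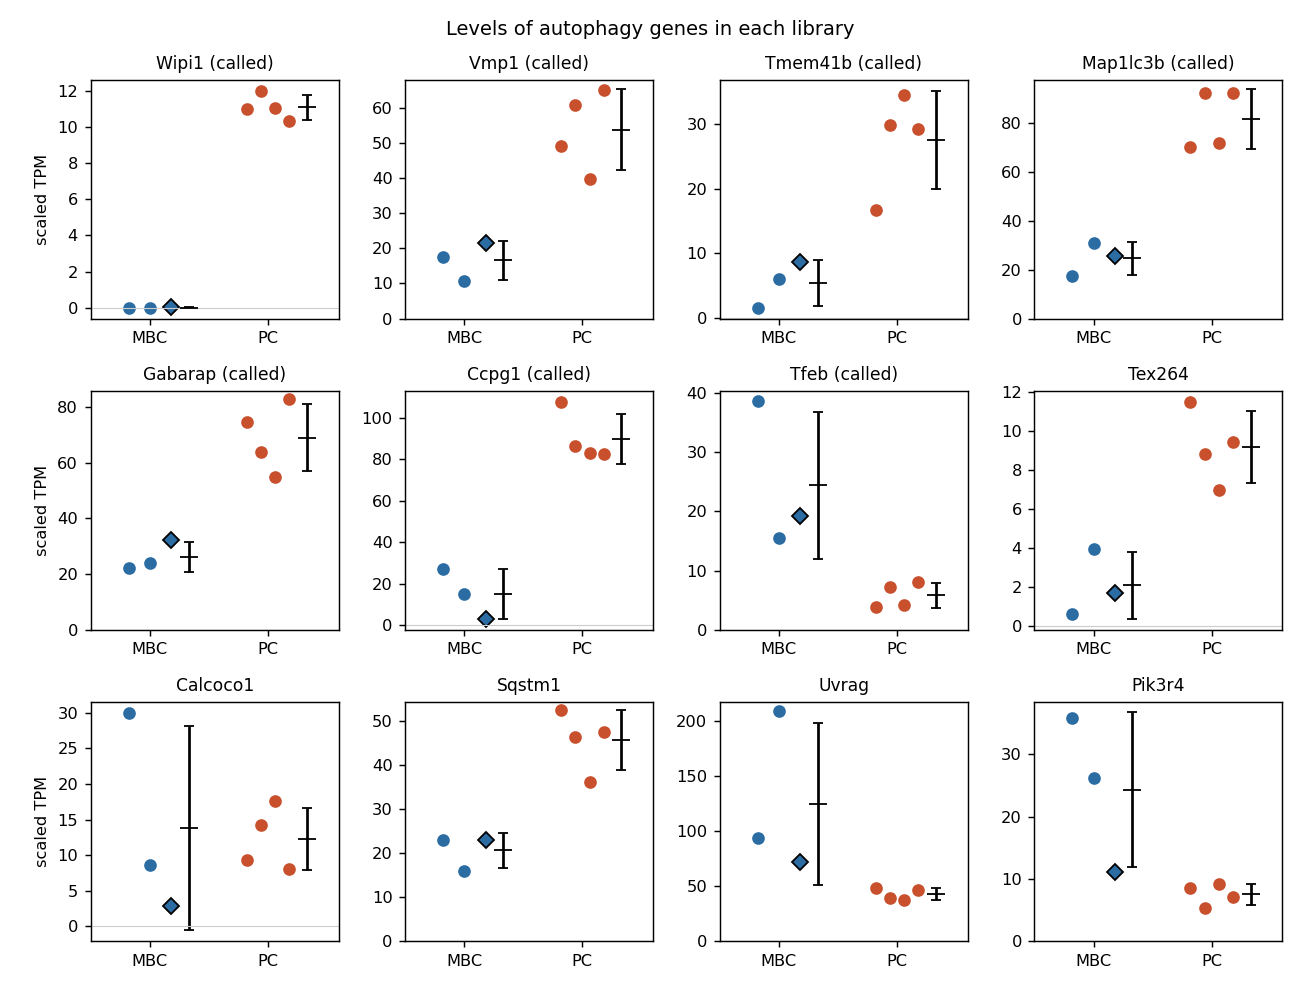
Scaled TPM of 12 members in each library (MBC, 3 points; PC, 4 points); the diamond is MBC replicate 3 and the bar gives the mean ± SD. The PC points lie above the MBC points for Wipi1, Vmp1, Tmem41b, Map1lc3b, Gabarap, Ccpg1, Tex264 and Sqstm1, below them for Tfeb, Uvrag and Pik3r4, and overlap them for Calcoco1.

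The conjugation genes couple ATG8 proteins to lipid and process them, and none of the 10 tested passed. Atg5, a part of the ligase that attaches ATG8, was at 2.74, 0.317 and 5.12 scaled TPM in MBCs and at 8.10, 12.7, 8.20 and 10.7 in PCs. The groups did not overlap, and the fold change was 1.79 (SE 0.61, adjusted p = 0.109). Without MBC replicate 3 it was called, at 2.21 (0.0257). Atg7, the activating enzyme of the pathway, was at 11.2, 0.243 and 8.91 in MBCs and at 2.94, 11.2, 14.8 and 6.69 in PCs, a spread within groups that covers the difference (0.72, adjusted p = 0.659). Atg3, whose promoter is printed above, had -0.25 (0.732), Atg10 1.10 (0.318), Atg12 1.04 (0.459), Atg16l1 0.35 (0.751) and Atg16l2 -1.54 (0.202). Atg12 was listed at 0 in MBC replicate 2 and at 2.58 and 7.70 in the others, against 2.38 to 10.4 in PCs.

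Among the ATG4 proteases, which trim ATG8 before coupling and release it afterwards, Atg4a was at 0.132, 8.53 and 7.80 scaled TPM in MBCs and at 9.77, 9.97, 9.82 and 10.2 in PCs. The PC libraries were above the MBC libraries, by little over 2 of them, and the fold change of 1.26 did not pass (adjusted p = 0.338). Atg4b was at 10.2, 23.1 and 6.15 in MBCs and at 3.92, 9.69, 4.24 and 7.95 in PCs (-0.82, adjusted p = 0.415). Of the summed ATG4 TPM Atg4a took 24.9% ± 23.2 in MBCs and 53.3% ± 9.58 in PCs, and Atg4b 68.6% ± 30.6 and 32.5% ± 8.50 (SD, n = 3 and 4), each with an exact permutation p of 0.0571. Atg4d had 0.52 (adjusted p = 0.583) and shares 19.3% of its exon bases with Kri1 on the other strand. Kri1 was at 13.9 to 61.0 in MBCs and at 6.67 to 12.4 in PCs, and Atg4d at no more than 2.41. How reads were divided between them was not tested. Atg4c reached 1 TPM as deposited in too few libraries to be tested and was at 0, 0.040 and 0.526 in MBCs and at 1.59, 1.35, 0.086 and 0.739 in PCs.

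The ATG8 proteins sit on the autophagosome membrane and bind receptors, and their 2 most abundant genes rose in PCs. Map1lc3b, which encodes LC3B (chr8:121590361-121598760, plus strand), was at 17.6, 30.9 and 25.6 scaled TPM in MBCs and at 70.1, 92.4, 72.0 and 92.1 in PCs. The mean rose from 24.7 ± 6.69 (SD, n = 3) to 81.7 ± 12.3 (n = 4) without overlap, by 1.71 (SE 0.34, adjusted p = 0.0126). Gabarap (chr11:69991143-69994951, plus strand), of the other ATG8 branch, was at 22.2, 23.9 and 32.3 in MBCs and at 74.4, 63.7, 55.0 and 82.6 in PCs. It rose from 26.2 ± 5.39 to 68.9 ± 12.1, by 1.37 (SE 0.33, adjusted p = 0.0317). In both genes every PC library stood well clear of the highest MBC library. Map1lc3b kept its call in 13 of 18 alternatives and lost it without PC replicate 2 or 4. Gabarap kept it in 6, and of the libraries left out in turn only MBC replicate 3 left it called. The 4 pseudogene copies of Map1lc3b took at most 12.8% of the sum of gene and copies.

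Gabarapl2 was at 11.1, 0.930 and 18.4 in MBCs and at 8.04, 28.7, 16.1 and 15.3 in PCs (1.11, adjusted p = 0.426), and its 3 pseudogene copies took up to 26.6% of the summed loci. Gabarapl1 was at 6.82, 0 and 0.541 in MBCs and at 3.29, 3.36, 3.42 and 3.15 in PCs (0.91, adjusted p = 0.469). Map1lc3a was listed at 0, 0 and 1.04 in MBCs and at 0.173, 7.10, 0.221 and 2.57 in PCs (1.00, adjusted p = 0.431). In these 3 genes the groups overlapped, in Gabarapl1 through the spread among MBCs alone. Differences in the makeup of the family were within the spread between libraries. Map1lc3b held 39.6% ± 13.8 of summed ATG8 TPM in MBCs and 47.1% ± 1.69 in PCs (exact permutation p = 0.314), and Gabarap held 41.0% ± 2.26 and 40.0% ± 6.45 (p = 0.8286). Gabarapl2 took 14.8% and 9.66%, Gabarapl1 4.16% and 1.94%, and Map1lc3a 0.445% and 1.3%.

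The soluble cargo receptors Sqstm1, Nbr1, Optn and Tax1bp1 bind ubiquitin on cargo and ATG8 on the membrane, and none of the 4 passed. Sqstm1, which encodes p62 (chr11:50199366-50210827, minus strand), was at 23.0, 16.0 and 22.9 scaled TPM in MBCs and at 52.4, 46.3, 36.1 and 47.5 in PCs. All PC libraries were above all MBC libraries, with means of 20.6 ± 4.0 and 45.6 ± 6.85, and the fold change was 1.11 (SE 0.34, adjusted p = 0.0779). Without MBC replicate 3 it was called, at 1.19 (0.0357), while with TPM as deposited its sign turned, at -0.17 (0.754). Sqstm1 shares 17.3% of its exon bases with Mrnip on the other strand. Tax1bp1 was at 103, 78.2 and 41.8 in MBCs and at 75.0, 65.6, 74.7 and 57.4 in PCs (-0.04, adjusted p = 0.966), Nbr1 had 0.30 (0.816) and Optn -0.37 (0.804).

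The receptors that pick out the ER were led by Ccpg1, which encodes an ER membrane protein that binds both ATG8 and the scaffold FIP200 and is known to be induced by ER stress. Ccpg1 (chr9:72985429-73016340, plus strand) was at 27.3, 15.0 and 3.04 scaled TPM in MBCs and at 108, 86.4, 83.0 and 82.4 in PCs. The highest MBC library was well below the lowest PC library, and within MBCs replicate 3 was far below the other libraries. The mean rose from 15.1 ± 12.1 (SD, n = 3) to 89.9 ± 12.0 (n = 4), by 2.89 (SE 0.59, adjusted p = 0.0157), and by 2.08 (0.00513) without MBC replicate 3. The call was kept in 15 of 18 alternatives and lost with TPM as deposited (1.65, adjusted p = 0.0603), with all genes above 0 tested and without PC replicate 1. Ccpg1 shares 42.9% of its exon bases with the readthrough gene Gm44503, listed at 0 in all libraries, and 28.9% with Pigb on the other strand. Pigb was at 10.9, 1.42 and 3.73 in MBCs and at 31.6, 13.2, 34.3 and 19.4 in PCs, so how reads were divided between the pair was not tested.

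Tex264, an ER membrane receptor with an ATG8 binding motif, was at 0.609, 3.96 and 1.67 in MBCs and at 11.5, 8.81, 6.95 and 9.41 in PCs. The groups did not overlap, with means of 2.08 ± 1.72 and 9.16 ± 1.87, yet the fold change of 1.86 missed the threshold (SE 0.54, adjusted p = 0.0682), as it did without MBC replicate 3 (1.78, 0.0558). Tex264 was called in 2 alternatives, without MBC replicate 2 and without the mean-variance trend. Calcoco1, a soluble receptor that reaches the ER through VAP proteins, was at 30.0, 8.55 and 2.82 in MBCs and at 9.25, 14.2, 17.6 and 8.09 in PCs, with the MBC range enclosing the PC range (0.29, adjusted p = 0.834). Of the 3 ER receptors 1 was thus called, 1 was separated without a call and 1 overlapped. Their median fold change was 1.86, and 0.88 with TPM as deposited.

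A share within a group of genes does not depend on the scaling between libraries, and 3 of the 7 receptors had shares that did not overlap between the populations, although none passed after adjustment. Ccpg1 took 13.4%, 7.80% and 3.34% of their summed TPM in MBCs and 39.4%, 34.0%, 31.8% and 35.3% in PCs, a mean of 8.19% ± 5.06 against 35.1% ± 3.20. Tax1bp1 took 50.6%, 40.7% and 45.8% in MBCs and 27.4%, 25.9%, 28.6% and 24.6% in PCs. It was the most abundant receptor in every MBC library, and Ccpg1 was in every PC library. The 7 shares add up to the whole, so these shares are not independent of each other. The scaled TPM of Tax1bp1 itself overlapped between the groups (log2 fold change -0.04, limma adjusted p = 0.966). Tex264 took 0.3% to 2.06% in MBCs and 2.66% to 4.20% in PCs. Like that of Wipi1, these 3 shares separated the groups with the smallest exact permutation p the design allows, 0.0286. Over the 21 shares tested the adjusted p was 0.150, and no share had a lower one. Sqstm1 held 14.9% ± 8.94 and 17.9% ± 2.85 (exact permutation p = 0.543).

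**Figure D3:**
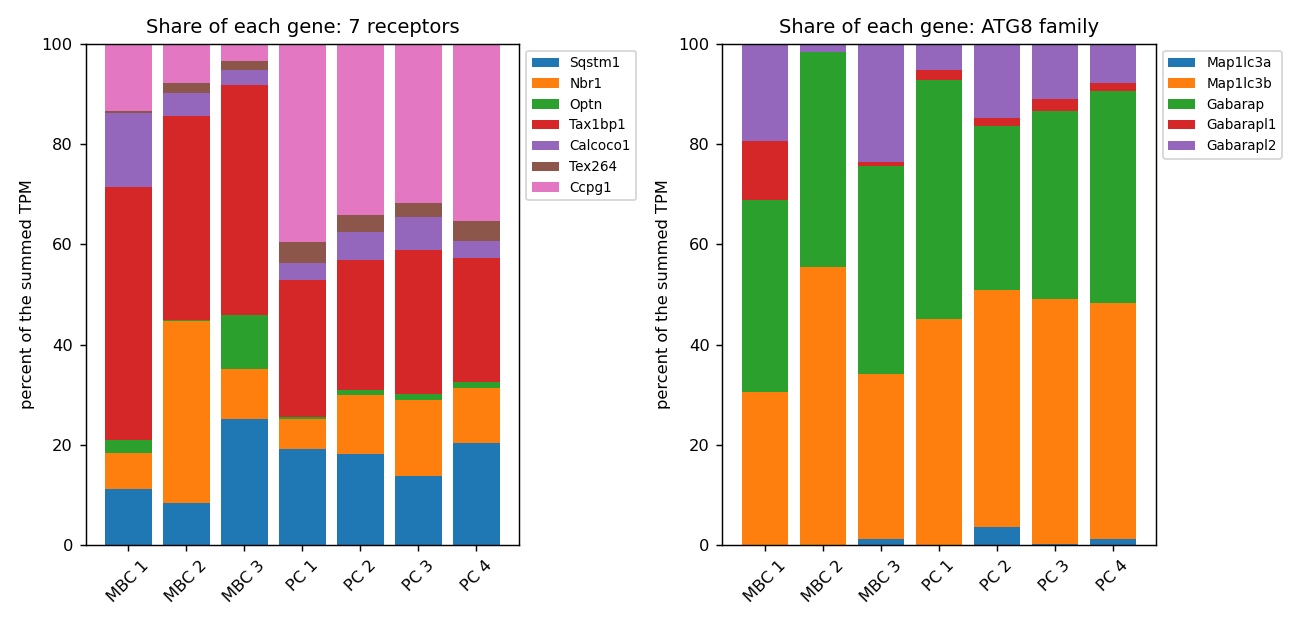
Percent of the summed TPM of the 7 receptors and of the 5 ATG8 genes taken by each gene, as a stacked bar per library. The Ccpg1 segment spans 3.34% to 13.4% in MBCs and 31.8% to 39.4% in PCs, while Map1lc3b and Gabarap fill most of the ATG8 bar in all 7 libraries.

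Tfeb was the only member called lower in PCs. TFEB and its relative TFE3 enter the nucleus when the kinase mTORC1 is inactive and switch on autophagy and lysosomal genes. Tfeb (chr17:47737030-47792419, plus strand) was at 38.6, 15.4 and 19.2 scaled TPM in MBCs and at 3.87, 7.22, 4.15 and 8.03 in PCs. It fell from 24.4 ± 12.4 to 5.82 ± 2.12 without overlap, the log2 difference being -1.84 (SE 0.49, adjusted p = 0.0493), close to the threshold. The call held in 6 of 18 alternatives and was lost without MBC replicate 1 and without each of the PC libraries, while adjusted p ran from 0.00403 to 0.184 over the alternatives. Among the libraries of the more frequent prefix the value was -2.10 (0.0665). Tfe3 was at 0.143, 24.7 and 3.97 in MBCs and at 1.01, 3.30, 3.59 and 3.50 in PCs, with MBC replicate 1 below the PC range and the other MBC libraries above it (-0.53, adjusted p = 0.774). Tfeb made up 73.6% ± 31.6 of the summed TPM of the pair in MBCs and 67.8% ± 10.6 in PCs (exact permutation p = 0.743). Epg5, which tethers autophagosomes to lysosomes, had -0.01 (adjusted p = 0.993).

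MBC libraries were less alike than PC libraries, with pairwise correlations of log2(scaled TPM + 1) over the genes tested of 0.675 to 0.687 against 0.85 to 0.957. In MBC replicates 1 and 2, 4 and 5 members were listed at 0, and none in the other 5 libraries. At 1 TPM or more as deposited stood 36, 34 and 43 members in MBCs and 40, 43, 40 and 42 in PCs. The median member was at 6.45 to 9.33 scaled TPM in MBCs and at 8.57 to 9.25 in PCs. The table lists no read totals, so the depth behind these values is unknown, and genes above 0 numbered 11527 to 18061 in MBCs and 14463 to 16768 in PCs. In such bulk libraries fewer cells of a type and less RNA per cell cannot be told apart.

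**Figure D4:**
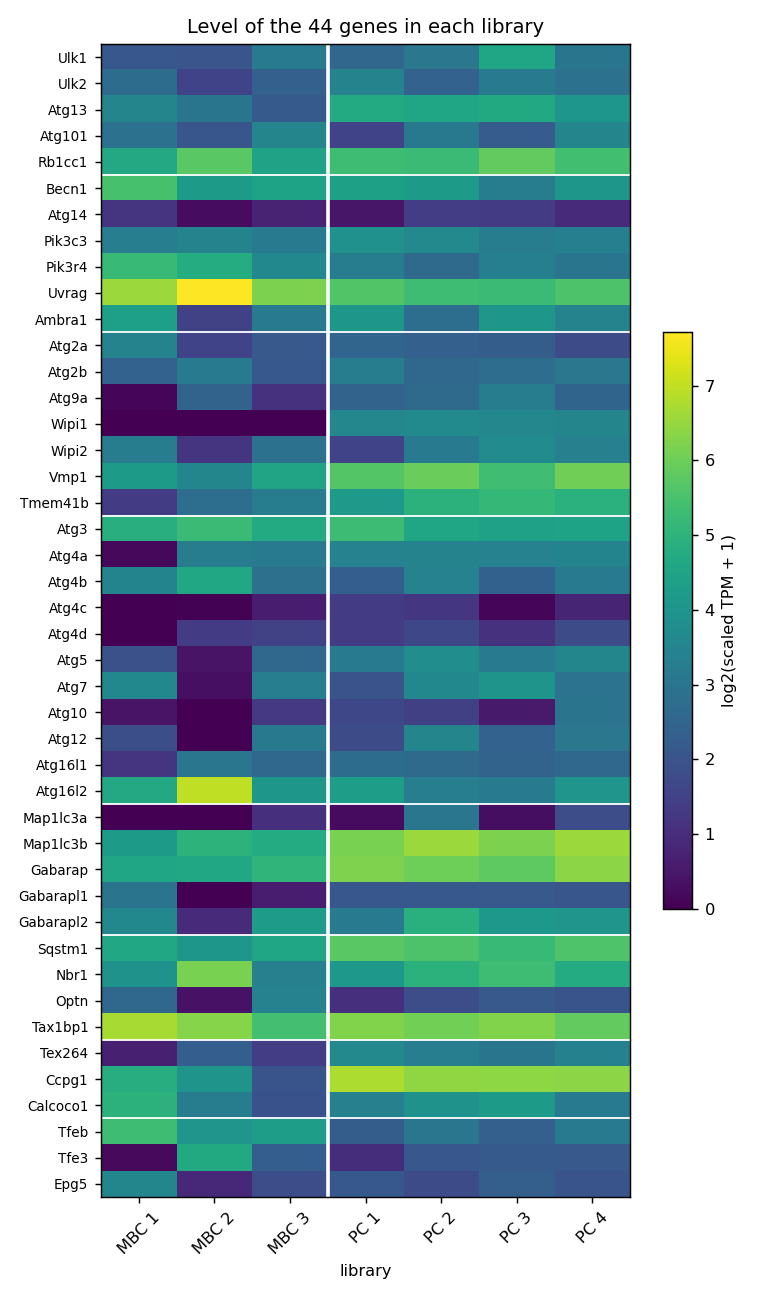
The log2(scaled TPM + 1) of all 44 members (rows, by role) in the 7 libraries (columns). Wipi1 is dark in the 3 MBC columns and even across the 4 PC columns, and the MBC columns differ from each other more often than the PC columns do.

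Genes of other steps of the pathway, in 6 lists chosen by role, were read from the same fit, in which 6.41% of all genes were called higher and 2.14% lower. Of 12 genes that fuse autophagosomes with lysosomes (Stx17, Snap29 and the HOPS tethering complex among them) none was called, and their median fold change was -0.24. Of 24 lysosomal genes 3 were higher and 1 lower, with a median of 0.61. Npc2, a carrier of lysosomal cholesterol, was at 7.08, 3.94 and 4.54 scaled TPM in MBCs and at 39.4, 37.0, 24.3 and 34.9 in PCs (2.51, SE 0.40, adjusted p = 0.00412). Every PC library was above the MBC range, and the call held in 17 of 18 alternatives. The protease Ctsb was at 29.1, 12.6 and 8.45 in MBCs and at 44.8, 63.9, 38.9 and 59.8 in PCs. It rose by 1.72 (SE 0.45, adjusted p = 0.0469) and kept that call in 2 alternatives.

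Upstream, 1 of 22 tested genes of mTORC1, AMPK and their regulators was called. Sesn3, a sestrin that restrains mTORC1, was at 61.7, 68.4 and 35.9 scaled TPM in MBCs and at 3.73, 8.66, 13.6 and 9.76 in PCs (-2.56, SE 0.48, adjusted p = 0.0098), all PC libraries lying below the MBC libraries. Among 13 other genes of ER turnover 3 rose and 1 fell, with a median of 0.85. Those that rose included genes of the pathway that attaches the small modifier UFM1 to ribosomes at the ER. The modifier Ufm1 was at 9.34, 2.92 and 8.11 in MBCs and at 23.6, 37.7, 26.2 and 25.0 in PCs (2.00, SE 0.46, adjusted p = 0.0276). The ligase partner Cdk5rap3 was at 2.5, 4.72 and 7.02 in MBCs and at 18.1, 16.6, 19.1 and 25.9 in PCs (1.93, SE 0.46, adjusted p = 0.0297). Neither gene had overlapping groups, and each kept its call in 8 of 18 alternatives. Retreg1, the ER-shaping receptor also called FAM134B, was at 70.8, 71.4 and 42.3 in MBCs and at 22.7, 27.9, 12.1 and 16.6 in PCs, and fell by 1.61 (SE 0.41, adjusted p = 0.0388). The call of Retreg1 was kept in 8 of 18 alternatives and lost on leaving out any library but MBC replicate 3.

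Of 7 tested genes of mitochondrial turnover none was called (median 0.59). Of 10 further autophagy genes 1 rose and 1 fell, with a median of 0.81. Trp53inp1, a p53 target whose protein binds ATG8, was at 29.0, 28.3 and 15.6 scaled TPM in MBCs and at 314, 312, 302 and 231 in PCs (3.56, SE 0.33, adjusted p = 0.000165). Rubcn, an inhibitor of the UVRAG form of the PI3-kinase complex, was at 55.3, 226 and 38.2 in MBCs and at 6.89, 4.84, 11.8 and 10.9 in PCs (-3.11, SE 0.61, adjusted p = 0.013). Neither gene had overlapping groups. Without MBC replicate 3, beside a background of 15.1% and 8.2%, the fusion genes had 0 higher and 1 lower (Plekhm1), the lysosomal genes 2 and 2, the genes of mTORC1 and AMPK 1 (Lamtor2) and 2, other ER turnover 3 and 1, mitochondrial turnover 0 and 0, and the further autophagy genes 1 and 2. With TPM as deposited the medians of these 6 lists were all negative, between -0.38 and -1.49, beside -0.91 for all genes.

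**Figure D5:**
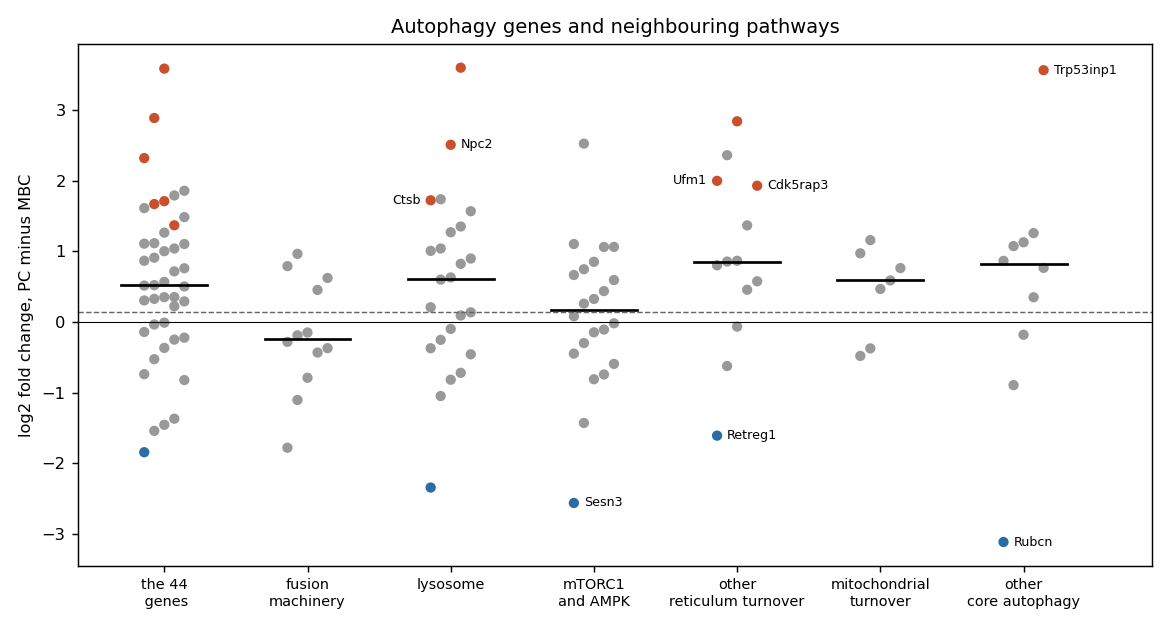
The log2 fold change (PC minus MBC, scaled TPM) of each tested gene of the autophagy set and of the 6 other lists (red called higher, blue called lower, grey not called), with names for the genes given in the text, a line at each list's median and a dashed line at 0.14, the median of all genes tested. The medians run from -0.24 for the fusion genes to 0.85 for other ER turnover genes, and with TPM as deposited all lie below 0.

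Markers of other cells were read beside these results. Summed T cell markers were 14.8, 0.13 and 24.8 scaled TPM in MBCs and 23.3 to 48.6 in PCs, and 2 of the 4 tested (Cd3e and Il7r) were higher in PCs, with Cd3g and Cd8a at 0 in all MBC libraries. Summed erythroid markers were 4524 in MBC replicate 2, against 4.17 and 56.5 in the other MBCs and 0.34 to 122 in PCs, and none of the 5 tested was called. Summed myeloid markers were 5.73 to 40.2 in MBCs and 23.4 to 31.0 in PCs with S100a9 at 0 throughout, dendritic cell markers 5.99 to 11.1 and 1.23 to 4.77, and platelet markers at most 4.58. Of 7 GC B cell markers 1 was lower in PCs (Mybl1), at sums of 70.3 to 139 against 244 to 664 in MBCs. Proliferation genes summed to 204 to 1078 in MBCs and 536 to 772 in PCs, with 0 of 10 called (median fold change 1.05). Without MBC replicate 3, 6 of the 10 proliferation genes were higher in PCs (Mki67 and Birc5 among them), with a median of 1.82, and 4 of 10 among the libraries of the more frequent prefix. Of all genes 15.1% were called higher in the former fit and 9.89% in the latter. The part of these markers in the results was not tested.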

How the data were processed

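Bulk RNA sequencing of 3 MBC and 4 PC libraries was analysed. The authors deposited TPM for 48795 Ensembl genes. The submitters' processing notes name RSEM 1.3.0, STAR 2.5.2a, DESeq2 1.18.1 and GRCm38, with no role or order, and whether counting used strand is not given in the sources used here. TPM holds no read totals, so depth per library is unknown. Symbols (48349 genes) and coordinates came from GENCODE release M21.

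Each library's TPM was divided by a scaling factor, the median of its ratios to gene-wise geometric means (9305 genes detected everywhere). The 11573 genes reaching 1 TPM in 3 or more libraries entered the test on log2(scaled TPM + 1), which understates changes of low genes, with limma 3.58.1 in R 4.3.3 (eBayes with trend, no covariate). Shares within gene families were tested by exact two-sided permutation over 35 assignments. Other steps used scipy 1.17.1, numpy 2.4.6 and pandas 2.3.3 in Python 3.11.15. The limma step was first tested on simulated data, where many of the changed genes were not called. A member that did not pass was thus not shown to be unchanged. No 2 libraries were copies (at least 99.3% of values differed). All members were accounted for. Those called, the ER and ATG8 groups, Sqstm1, Ulk1, Tfeb and Tfe3 were given by library, as were, after their values were seen, some members whose groups did not overlap or that varied within a group. In other lists up to 3 called genes per direction were named, and some items are not reported here. The members and lists were chosen with earlier results of these data known.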

Additional observations from a re-analysis of the deposited data

Results flagged for a closer look

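In 4 members a single PC library lay apart from the other PC libraries, by more of the range than the limit that Dixon's test sets for groups of 4. Ulk1 was at 22.8 scaled TPM in PC replicate 3, against 4.83 to 7.40 in the others. The other 3 were in PC replicate 1, where Atg3 was at 37.9 (20.5 to 22.5 in the others), Ccpg1 at 107.7 (82.4 to 86.4) and Tfe3 at 1.01 (3.3 to 3.59). Chance alone gives such a gap in about 1 of 20 groups, or 3.25 of the 65 sets of PC values examined.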

How the results depend on the processing

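With all libraries 6 members were higher and 1 lower in PCs. Members called higher numbered 1 with TPM as deposited, 3 with immunoglobulin genes removed, and 2 with a replicate block or with a title code block (Ccpg1 and Wipi1 in both). Either block leaves less of the data to estimate the spread. Members called lower numbered 8 with TPM as deposited, 2 with immunoglobulin genes removed, among libraries of the more frequent prefix and after quantile normalization, and 0 with all genes above 0 tested, a pseudocount of 0.1, either block or the prefix as a covariate. Of all genes 4.08% were higher with TPM as deposited, 3.46% with immunoglobulin genes removed, 3.37% with the replicate block and 3.75% with the title code block. In the settings with lower members 26.1%, 3.8%, 4.37% and 3.97% of all genes were lower, in that order. Where no member was lower, 0.518% to 2.73% of all genes were. Leaving out single libraries gave 2 to 8 higher and 0 to 3 lower. The lowest of 2 higher came without PC replicate 2 or 4 and 3 without PC replicate 1, while 3 lower came without MBC replicate 3 and 0 without MBC replicate 1 or any PC replicate. The 2 higher were 4.76% of members tested, beside 4.03% and 4.23% of all genes, and the 3 higher were 6.98%, beside 5.18%. Without MBC replicate 3 the members had 19.0% higher and 7.14% lower, beside 15.1% and 8.2% of all genes. Where leaving out a library left no member lower, 0.823% to 1.25% of all genes were lower. Removing immunoglobulin, mitochondrial and ribosomal RNA genes gave 5 and 1 (3.82% and 2.55% of all genes). Dropping the trend gave 6 and 1 (6.22% and 1.85% of all genes). Dropping the fold minimum also gave 6 and 1, but the share of all genes under that looser rule is not given, so these counts have no background. Same-numbered libraries did not deviate together (correlations 0.109, -0.04 and -0.083), and 1 of 3 MBC libraries correlated best with its own number, so the numbers were not read as pairs. Libraries of one title code had correlations of 0.109, -0.004 and 0.222, and 2 of 3 MBC libraries correlated best with their own code, but not every pair was over 0.1. Of the fold changes of single members under the alternatives 701 kept side and direction, 49 lost the call, 19 gained it and 0 turned a called direction. All 189 shares recomputed moved by less than the replicate spread. Counts in the other lists ranged most with TPM as deposited, with 6 lower in each of the fusion, lysosome and mTORC1 lists, against 0, 1 and 1. The cause of these changes was not tested. Low genes are the least certain, since read depth is unknown and up to 5 members were listed at 0 in an MBC library.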

Other observations

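The promoter windows of the lysosomal list differed in content from those of the autophagy members. TCACGTG stood in 7 of the 18 lysosomal genes with a window (38.9%: Lamp1, Ctsa, Ctsd, Gla, Mcoln1, Atp6v0d1 and Gaa), beside 8.11% of the members and 4.29% of all genes, and CACGTG in 8 (44.4%), with Ctsl in addition. None of these 8 genes was called in either direction. Of the called lysosomal genes Npc2 had a window, and it held neither motif.

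Within the ATG16L pair, Atg16l1, the subunit of the coupling ligase, took 4.93%, 5.41% and 23.7% of summed TPM in MBCs and 22.6%, 38.1%, 36.3% and 24.7% in PCs. MBC replicate 3 overlapped the PC range (exact permutation p = 0.0571, adjusted p = 0.171 over 21 shares).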
